A study of Drosophila melanogaster with 2 samples.

Results

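The nuclear transfer RNA (tRNA) genes of Drosophila melanogaster are the subject here, examined for listed binding of the nuclear receptor Ftz-F1 in the embryo. The members are all genes with the tRNA type on the chromosome arms in the BDGP6 annotation, 290 of 18164 annotated genes, and the 22 mitochondrial tRNA genes were left out. Chromatin immunoprecipitation sequencing was done on whole embryos of mixed sex aged 0 to 24 hours. The embryos came from transgenic flies whose Ftz-F1 carries enhanced green fluorescent protein at its C-terminus, and the tag was the target of the antibody. Both libraries, biological replicates 1 and 4, belong to 1 group with no second condition, each with a biosample of its own. The labels do not say whether the embryos were of separate fly stocks or collections, so part of the spread between the libraries may be technical. The tag sits on a transgene, so the lists describe the tagged protein in all embryonic tissues together. Peak lists carry no expression values, so the labelled tissue could not be checked against marker genes.

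Transfer RNA genes are short and are transcribed by RNA polymerase III. Their promoter lies inside the gene: the A box and the B box are bound by TFIIIC, which brings TFIIIB to the DNA just upstream, and TFIIIB places the polymerase. Many copies of each tRNA gene are scattered over the genome, often in small clusters. Ftz-F1 is known from segmentation, where it acts with the homeodomain protein Fushi tarazu at polymerase II genes, and from ecdysone responses.

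The sequences of 3 sites on arms 2L and 3R are printed because their summits came next in signal after the strongest one at a tRNA gene, which is described with the other sites. All are 5′ to 3′ on the strand given, from the release 6 (dm6) reference. Capitals in the genes mark GGTTC, the core of the B box, which was present once in each gene shown. Capitals in the 81 bp windows mark the summit base, with 40 bp on either side.
tRNA:Pro-AGG-1-3, chr2L:14599396-14599467, minus strand: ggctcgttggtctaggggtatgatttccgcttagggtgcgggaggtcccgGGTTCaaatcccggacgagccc
tRNA:Pro-AGG-1-4, chr2L:14599674-14599745, plus strand: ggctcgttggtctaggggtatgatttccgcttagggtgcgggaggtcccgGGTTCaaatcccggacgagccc
summit window between these genes, chr2L:14599557-14599637, plus strand: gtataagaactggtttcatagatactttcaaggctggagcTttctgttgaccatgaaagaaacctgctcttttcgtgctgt
tRNA:Ser-GCT-1-1, chr3R:22397180-22397261, minus strand: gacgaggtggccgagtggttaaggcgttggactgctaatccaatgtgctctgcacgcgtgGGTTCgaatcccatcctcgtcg
tRNA:Ser-GCT-2-5, chr3R:22397572-22397653, plus strand: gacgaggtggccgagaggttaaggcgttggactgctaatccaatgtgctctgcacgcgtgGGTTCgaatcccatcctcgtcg
summit window between these genes, chr3R:22397470-22397550, plus strand: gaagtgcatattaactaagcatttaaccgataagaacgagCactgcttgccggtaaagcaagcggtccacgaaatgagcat
tRNA:Tyr-GTA-1-6, chr3R:8668116-8668208, minus strand: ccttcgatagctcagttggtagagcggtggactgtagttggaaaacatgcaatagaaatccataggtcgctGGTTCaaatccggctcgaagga
tRNA:Tyr-GTA-1-7, chr3R:8668612-8668705, minus strand: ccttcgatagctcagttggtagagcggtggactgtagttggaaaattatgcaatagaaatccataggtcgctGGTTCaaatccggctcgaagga
tRNA:Tyr-GTA-1-8, chr3R:8669081-8669174, minus strand: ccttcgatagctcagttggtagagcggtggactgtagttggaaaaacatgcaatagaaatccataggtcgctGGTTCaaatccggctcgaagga

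The proline genes were identical over all 72 bases and pointed away from each other, with the summit in the space between their 5′ ends. The serine genes had the same arrangement and differed by 1 substitution, T16A (tRNA:Ser-GCT-1-1 base first, then that of tRNA:Ser-GCT-2-5, counted from the 5′ end of the gene). The tyrosine genes, which hold an intron, shared their first 45 bases. In the same count, tRNA:Tyr-GTA-1-7 and tRNA:Tyr-GTA-1-8 differed by T46A and T47C, while tRNA:Tyr-GTA-1-6 was 93 bp long against 94 bp.

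The 290 genes served 22 amino acid groups, with initiator methionine and selenocysteine counted apart, and 45 anticodons. They had 95 distinct sequences: 52 genes were single copies and 1 sequence occurred 13 times. Arm 2R held 98 of them, 3R 79, 3L 48, 2L 41 and X 24, with none on chromosome 4. Gene length had a median of 73 bp (71 to 186 bp). Genes up to 5000 bp apart were joined into 144 loci, of which 76 held 1 gene.

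The authors deposited a list of 3960 peaks thresholded by irreproducible discovery rate (IDR), a measure of whether ranks repeat between replicates, and a list for the pooled replicates with 29999 peaks on the arms. The IDR peaks were ranks 1 to 3960 of the pooled list by signal value. The signal value comes from the authors, its scale is not stated, and it was compared only within a list. The pooled list also holds weak regions. Read depth is unknown, so a gene without a summit is a gene without a listed summit. A gene was counted as reached when a summit lay inside it or within 500 bp of either end.

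IDR summits reached 33 tRNA genes, 11.4% (Wilson 95% interval 8.22 to 15.6, n = 290), in 18 loci. Sliding each gene over every position of its own arm gave an expectation of 3.06%, or 8.87 genes. Another 152 genes were reached only by weaker pooled summits. In all, 185 genes were reached in the pooled list, 63.8% (58.1 to 69.1), against 54.6 genes or 18.8% under the same placement. The remaining 105 genes had no pooled summit, and 77 of these had none in either replicate's own list. For background, an IDR summit lay within 500 bp of the 5′ end of 16.2% of protein-coding genes and a pooled summit of 55.3%. Among non-coding genes other than tRNA genes, with no protein-coding start within 500 bp, the background was 3.32% in the IDR list and 19.6% in the pooled list. Here and below, the intervals cover counting error only and treat genes as separate, although neighbours share summits. Placement was uniform over the arm, and no chromatin data entered it.

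The replicates gave close counts, though their full lists, like the pooled one, were all 30000 entries long, which favors close counts. Replicate 1's full list reached 186 tRNA genes and replicate 4's reached 182, against 54.4 and 55.5 under placement. They shared 157 genes, 84.4% of replicate 1's and 86.3% of replicate 4's. The overlap was smaller among strong peaks: the strongest 3960 peaks reached 39 genes in replicate 1 and 32 in replicate 4, with 21 in common, which is 53.8% and 65.6% of each. Of the 144 loci, 89 were reached in replicate 1, 84 in replicate 4 and 75 in both. The median of the best rank in those 75 loci was 7665 in replicate 1 and 10295 in replicate 4. Spearman's rho between the best ranks was 0.717 over the 75 loci, which share both libraries, and it is given as a description.

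**Figure D1:**
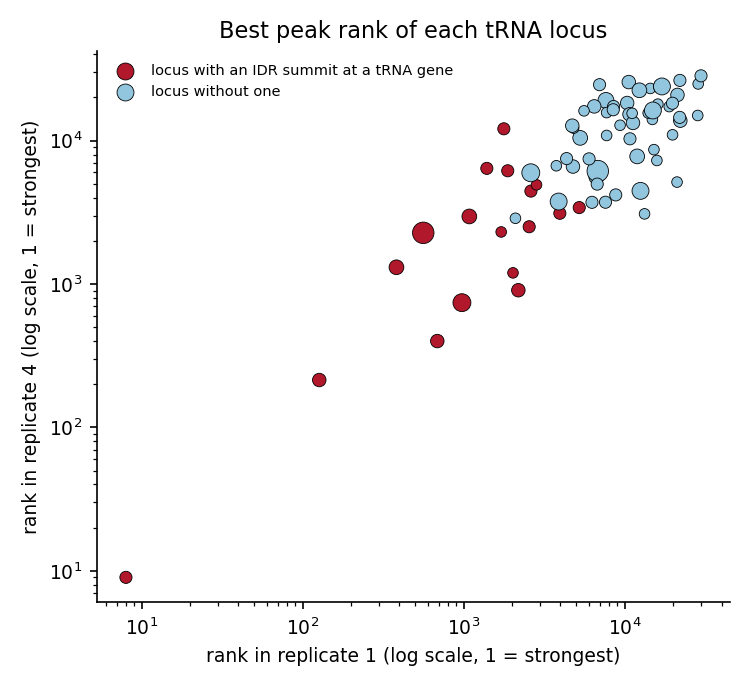
Each point is 1 of the 75 tRNA loci with a summit in both replicates, placed by its best rank in replicate 1 (x axis) and replicate 4 (y axis), both on log scales with 1 the strongest, and larger points hold more genes. The locus nearest the origin has ranks 8 and 9, and red loci, with an IDR summit at a tRNA gene, mostly lie toward low ranks on both axes, with 1 of them at 1779 and 12089.

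Protein-coding starts lay near few of these genes. Of the 290, 33 had a protein-coding transcript start within 500 bp, 11.4% (8.22 to 15.6), against 12.4% under placement. That number equals the count of genes with an IDR summit, but the sets are different: 10 genes were in both. Coding starts were present at 30.3% of the 33 genes with an IDR summit (17.4 to 47.3), at 14.1% of the 185 with a pooled summit (9.77 to 19.8) and at 6.67% of the 105 with none (3.27 to 13.1).

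Summits were nevertheless found away from coding starts. Among the 33 tRNA genes with a coding start, 10 had an IDR summit (30.3%, expectation 14.3%) and 26 a pooled one (78.8%, expectation 51.5%). Among the 257 tRNA genes without a coding start, 23 had an IDR summit, 8.95% (6.04 to 13.1), against 1.49% for placements equally free of coding starts, a ratio of 6.02. All 23 were in loci of more than 1 gene. This split is by distance from the gene, so a summit reaching such a gene can itself lie near a coding start. That was so at tRNA:Tyr-GTA-1-7 (371 bp), tRNA:Thr-AGT-1-5 (497 bp) and tRNA:Arg-TCG-2-4 (224 bp). Of the 21 IDR summits at tRNA genes, 11 were themselves more than 500 bp from a coding start. In the pooled list these 257 genes had 159 summit-bearing members, 61.9% (55.8 to 67.6), against 14.2%, a ratio of 4.37. With the start of any other annotated gene also kept away, 246 genes remained and the shares were 9.35% in the IDR list and 61.8% in the pooled list. In the strongest 3960 peaks of each replicate, genes without a coding start had shares of 12.1% in replicate 1 and 9.34% in replicate 4.

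The density of summits was then followed with distance from the tRNA 5′ end. Pooled summits within 100 bp on either side of a tRNA 5′ end made 91 gene-summit pairs, 6.93 times the mean density of the arms. Farther upstream the ratio was 2.89 between 1000 and 500 bp and 2.25 between 2000 and 1000 bp. Downstream it was 2.07 between 500 and 1000 bp and 1.80 between 1000 and 2000 bp. IDR summits leaned upstream: the 500 bp before the 5′ end held 23 pairs, 5.17 times the density of the arms, and the 500 bp after it held 9, a ratio of 2.02. The next 500 bp downstream held 11 IDR pairs, a ratio of 2.47, so on that side the density was not highest at the gene. A summit in a cluster is counted once for each gene it neighbours. The nearest pooled summit was a median of 234.5 bp away over all 290 genes, and the nearest IDR summit 10334.5 bp away.

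**Figure D2:**
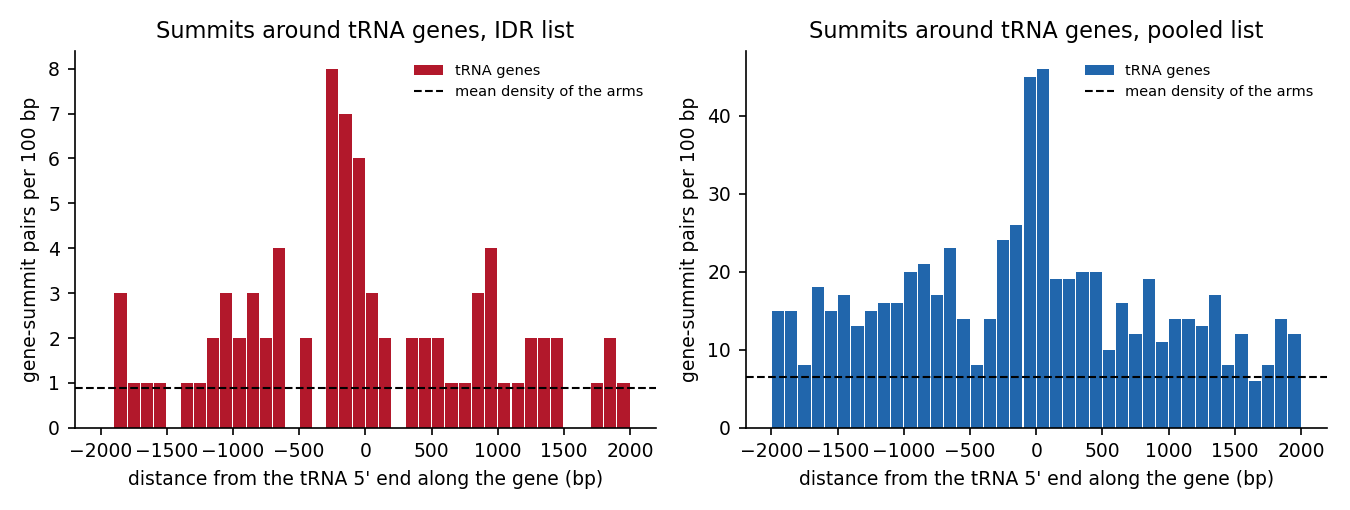
Bars give the number of gene-summit pairs in each 100 bp bin (y axis) by distance of the summit from the tRNA 5′ end, negative upstream (x axis, bp), for the IDR list (left) and the pooled list (right), and the dashed line is the mean density of the arms. The pooled bins beside the 5′ end are the highest, and the 500 bp upstream hold 23 IDR pairs against 9 in the 500 bp downstream.

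The 33 genes were reached by 21 IDR summits, of which 10 reached 2 or more tRNA genes. Counted from the nearest tRNA gene, 13 summits lay upstream, 3 inside and 5 downstream, a median of 108 bp away. Their signal values had a median of 139 (93.9 to 1405), against 131 over the IDR list, so they were spread through the list. All 21 overlapped a peak in both replicates, but the IDR threshold itself rests on how ranks repeat between them. The list held the top 3960 pooled peaks by signal value, so a given peak in it can still differ between replicates. A coding start was within 500 bp of 10 of the summits and farther from 11.

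The strongest summit in reach of a tRNA gene was dm6 chr2R:17392573, rank 8 of the pooled list with a signal value of 1405. It lay 287 bp downstream of tRNA:Ala-TGC-2-1 (chr2R:17392215-17392286, plus strand), and the nearest coding start, that of CG10939, was 2020 bp away. Its rank was 8 in replicate 1, with a signal value of 690, and 9 in replicate 4, with 721. The nearest start of another RNA gene was 3492 bp away, and no protein-coding gene covers the summit. No other of the 21 IDR summits at tRNA genes ranked under 100 in either replicate.

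The proline pair came next, with a summit at chr2L:14599597, 77 bp upstream of tRNA:Pro-AGG-1-4, inside osp and 11363 bp from the nearest coding start. It had rank 154 and signal 408 in the pooled list, and ranks 127 in replicate 1 and 214 in replicate 4. At the serine pair, the summit at chr3R:22397510 lay 62 bp upstream of tRNA:Ser-GCT-2-5 and 3406 bp from the start of CG13857, with pooled rank 634. It was stronger by rank in replicate 1 (383) than in replicate 4 (1308). The tyrosine genes lie within CG8036. Their summit at chr3R:8669398, rank 460, was 224 bp upstream of tRNA:Tyr-GTA-1-8 and also 220 bp from a CG8036 start. A further summit at chr3R:8668239, rank 1224, was 31 bp upstream of tRNA:Tyr-GTA-1-6 and 371 bp from a CG8036 start. The first tyrosine summit ranked 717 in replicate 1 and 400 in replicate 4, and the further one ranked 687 and 2861 in that order.

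Other strong summits away from coding starts lay at valine, tryptophan, isoleucine and glutamate genes. At chr3R:17617351, rank 957, the summit was 410 bp upstream of tRNA:Val-CAC-1-1, with ranks 562 in replicate 1 and 2275 in replicate 4. At chr2R:21161582, rank 1295, it was inside tRNA:Trp-CCA-2-4 and reached 3 tRNA genes, with ranks 2189 in replicate 1 and 905 in replicate 4. The direction of the replicate difference therefore varied from site to site. At chr2R:13431036, rank 1740, it was inside tRNA:Ile-AAT-1-4, and the replicate ranks were close, 1769 and 2059. At chr3L:22847872, rank 1990, it was 76 bp upstream of tRNA:Glu-CTC-2-3, with replicate ranks of 2556 and 2508. At chr3L:13432901, rank 2557, it was 147 bp upstream of tRNA:Val-AAC-2-3, and the replicates stood farther apart, at 1395 in replicate 1 and 6404 in replicate 4.

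The weakest of these summits away from coding starts were at arginine, serine and initiator methionine genes. The summit at tRNA:Arg-TCT-1-1 ranked 3242 and lay 6 bp upstream of the gene, and the one at tRNA:Ser-TGA-2-1 ranked 3718 and lay 183 bp upstream. At tRNA:iMet-CAT-1-5, rank 3816, replicate 1 had rank 1779 and replicate 4 rank 12089, the widest gap among the 21 in the number of ranks. At tRNA:Arg-TCG-2-4, rank 3029, the gene was more than 500 bp from any coding start, but the summit itself was 224 bp from that of pyd, which encodes a junction protein.

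Several summits could not be assigned to a tRNA gene rather than a coding start. The summit at chr2R:13429887, rank 828, was 8 bp from a start of ATP8A, a phospholipid flippase gene, and 395 bp downstream of tRNA:Ile-AAT-1-3. The one at chr2R:18639275 was 5 bp from a start of CG30122 and 282 bp from tRNA:Trp-CCA-2-2. On X the only IDR summit at a tRNA gene, chrX:6744349, was 111 bp from the start of the ribosomal protein gene RpL17 and 122 bp from tRNA:Phe-GAA-1-2. At tRNA:His-GTG-1-3 the summit was 180 bp from the gene and 70 bp from a CG8490 start, and at tRNA:Ile-AAT-1-8 it was inside the gene and 351 bp from an ATP8A start. At tRNA:Thr-AGT-1-6 the gap was 35 bp, with AttD, an antibacterial peptide gene, 497 bp away.

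Below the IDR threshold, 141 further pooled summits reached 165 tRNA genes. They lay a median of 57 bp from the nearest tRNA gene, with 89 of 141 within 100 bp, against a median of 108 bp and 10 of 21 for the IDR summits. There were 56 upstream, 35 inside and 50 downstream, and 123 were more than 500 bp from a coding start. Their median signal value was 36.6, against 35.4 over the whole pooled list. That list includes the stronger IDR peaks, which the 141 leave out, so the median of its weaker peaks is below 35.4. A replicate 1 peak overlapped 129 of them and a replicate 4 peak 127. Not all 141 are separate sites, because neighbouring pooled peaks can overlap the same replicate peaks. The one at chr2L:14599801, for example, had the replicate ranks of the proline IDR summit, 127 and 214. The strongest of the 141 lay at tRNA:Glu-TTC-1-5 (pooled rank 4214, with 2616 in replicate 1 and 6889 in replicate 4) and tRNA:Asn-GTT-1-7 (4297, with 6274 and 3713). Next were tRNA:Asp-GTC-2-1 (4600), tRNA:Val-CAC-2-5 (4679) and tRNA:iMet-CAT-1-2 (5022).

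The ground within 500 bp of a tRNA gene was 0.175% of the arms, and summits there took a larger share of the peaks in each of 6 bands of pooled rank. They made up 0.600% of ranks 1 to 1000, 0.700% of ranks 1001 to 2000 and 0.408% of ranks 2001 to 3960. Below the IDR threshold they made up 0.619% of ranks 3961 to 8000, 0.700% of ranks 8001 to 15000 and 0.447% of ranks 15001 to 30000. The bands therefore followed no single order with rank. With peaks within 500 bp of a coding start left out, the shares ran from 0.496% (ranks 2001 to 3960) to 1.15% (ranks 3961 to 8000).

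Pooled shares by arm ran over a wide range. On 2R, 82 of 98 tRNA genes had a pooled summit, 83.7% (75.1 to 89.7), with 19.1% under placement. The shares were 63.3% on 3R (50 of 79), 58.3% on 3L (28 of 48) and 43.9% on 2L (18 of 41). On X it was 7 of 24, 29.2% (14.9 to 49.2), an interval that holds the 19.5% under placement. Without coding starts the X had pooled summits at 5 of 22 tRNA genes, 22.7% (expectation 14.9%), and IDR summits at 0 of 22, with a Wilson upper bound of 14.9%. In the IDR list the arms had 16, 10, 4, 2 and 1 genes on 2R, 3R, 3L, 2L and X, and their intervals overlapped. Differences between arms were not tested.

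**Figure D3:**
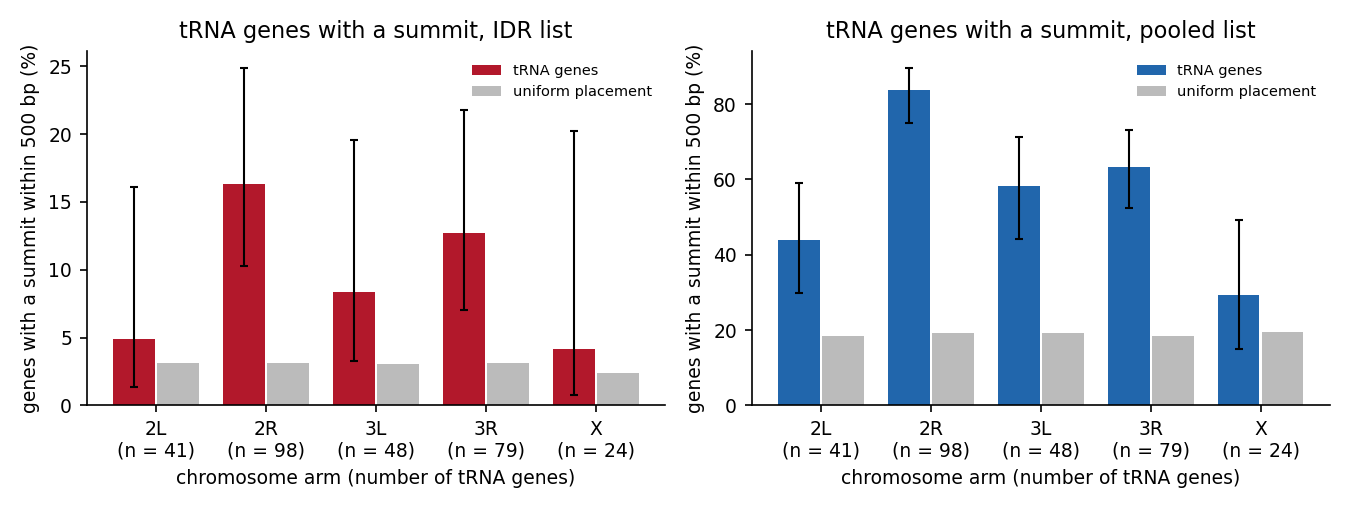
Colored bars give the percentage of tRNA genes with a summit within 500 bp on each arm (x axis, with the number of genes), for the IDR list (left) and the pooled list (right), with 95% Wilson intervals, and grey bars give the exact expectation from uniform placement on the same arm. In the pooled list 2R stands at 83.7% and X at 29.2%, while the expectations are near 19%.

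Lone genes had the lowest shares. Pooled summits reached 36.8% of the 76 lone genes (26.9 to 48.1), 64.5% of the genes in pairs, 80.3% in loci of 3 or 4, and 76.4% in loci of 5 or more. By locus, the counts were 28 of 76, 27 of 38, 17 of 20 and 10 of 10, and larger loci cover more ground. IDR summits reached 3 of 76 lone genes (3.95%), 12 of 76 genes in pairs (15.8%), 11 of 66 in loci of 3 or 4 and 7 of 72 in larger ones. Placement gave 3.06% over all 290 tRNA genes, so the lone share was near it. The 3 lone genes were tRNA:Ile-AAT-1-8, tRNA:Thr-AGT-1-4 and tRNA:Phe-GAA-1-2, and each had a coding start within 500 bp. No lone gene away from coding starts had an IDR summit.

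The 5 loci with most genes differed among themselves. The locus at chr3R:17617761-17631750 had 11 genes for alanine, proline, threonine and valine tRNAs, and all 11 had a pooled summit and 3 an IDR summit. The locus at chr2R:6161535-6171759 also had 11 genes, for arginine, asparagine, isoleucine and lysine tRNAs, with 8 pooled and 0 IDR. At chr2R:13430282-13432794, in the ATP8A region, the 7 isoleucine and leucine genes all had a pooled summit and 4 an IDR summit. The 7 glutamate and initiator methionine genes at chr2R:19725620-19728958 had 7 pooled and 0 IDR. On X, the 7 arginine and serine genes at chrX:14014814-14017284 had 2 pooled and 0 IDR, with a best rank of 25211 in replicate 1 and no listed summit in replicate 4.

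All 22 amino acid groups had more genes with a pooled summit than placement gave. The highest shares among groups of 10 or more were isoleucine, 10 of 11 genes (expectation 2.11), aspartate, 12 of 14 (2.56), and leucine, 18 of 22 (4.19). The lowest was serine, 6 of 20 (3.80). Serine nevertheless had IDR summits at 4 genes, all in 2 loci, as did isoleucine in 2 loci. Tyrosine had 3 of 10 genes with an IDR summit, in 1 locus, and tryptophan 3 of 8, in 2. IDR summits were listed at 16 groups and at none of the genes for aspartate (14), asparagine (10), cysteine (7), glutamine (12), lysine (19) and selenocysteine (1). The replicates gave close counts for most groups, with 11 and 13 aspartate genes and 16 and 17 leucine genes in replicates 1 and 4, but 7 and 3 tyrosine genes and 9 and 5 serine genes. By anticodon, all 9 genes for Ile-AAT were reached in the pooled list, and 4 of them in the IDR list. Those 9 genes all lie on 2R, where 83.7% of tRNA genes had a pooled summit. At the other end, no pooled summit reached any of the 8 Ser-AGA, 6 Lys-TTT or 2 Val-TAC genes, while 11 of 13 Lys-CTT genes were reached. Members of a group share loci and often sequence, so the groups are described and not tested.

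**Figure D4:**
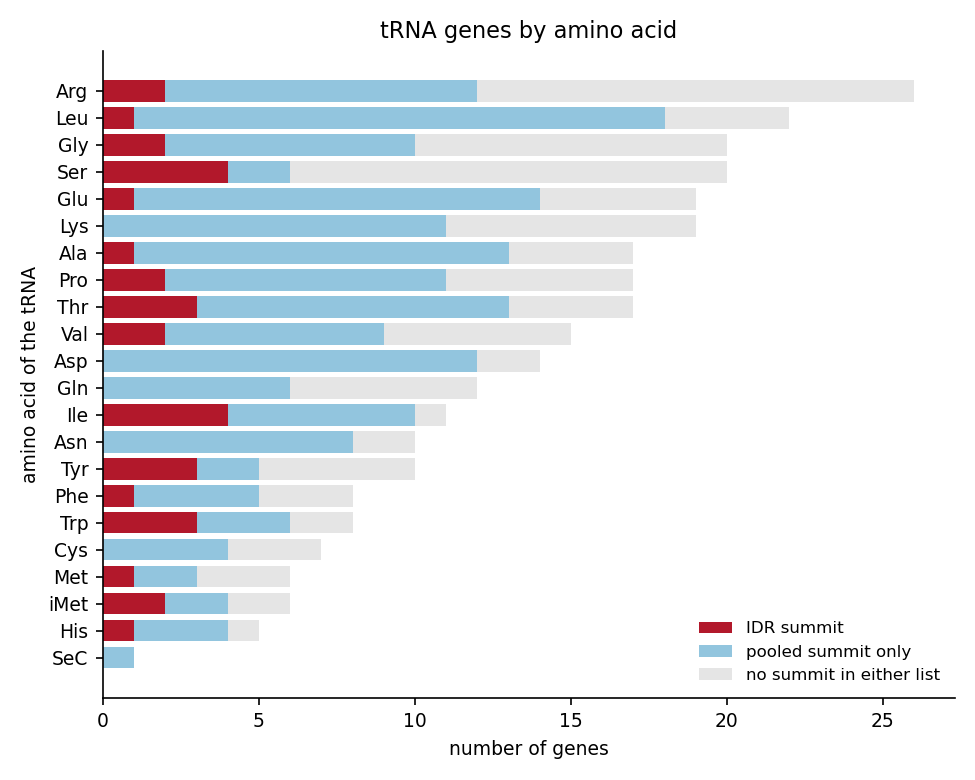
Each row is an amino acid group, and its bar counts the genes (x axis) with an IDR summit (red), with a pooled summit only (blue) and with neither (grey). Leucine reaches 18 of 22 and isoleucine 10 of 11 in either list, while serine reaches 6 of 20.

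Copy number went with the pooled share: 26 of 52 single-copy genes (50%), 35 of 58 with 2 to 4 copies (60.3%), 59 of 93 with 5 to 8 (63.4%) and 65 of 87 with 9 or more (74.7%). The IDR shares had no such order, at 19.2%, 5.17%, 15.1% and 6.90%. Arm and locus size, with which the pooled share also went, were not held fixed. The 52 single-copy genes lay in 43 loci, and the 87 genes with 9 or more copies in 41. How reads that fit several identical copies were placed is not given. The single-copy genes, whose full sequence matched no other of the 290 genes, were reached in 26 cases against 9.82 under placement. Some of them are close to other genes, as tRNA:Ser-GCT-1-1 is to tRNA:Ser-GCT-2-5 (1 substitution), so reads can still fit several. The effect of read placement was not tested. Genes inside a protein-coding gene had a pooled share of 67.9% (91 of 134), against 60.3% outside (94 of 156). The IDR shares were 11.2% and 11.5%.

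The letters of the genes and the ground around the summits were then searched on both strands. The Ftz-F1 consensus, a 9-letter site, was in none of the 290 tRNA genes. Its inner part AAGGTC was in 33 genes, of which 8 had an IDR summit (24.2%) in 5 loci, against 25 of the 257 others (9.73%). Of these 8, 4 were identical Ile-AAT copies. The summit need not lie at the AAGGTC: it was 395 bp from tRNA:Ile-AAT-1-3 and 410 bp from tRNA:Val-CAC-1-1. At tRNA:Ile-AAT-1-4 and tRNA:Ile-AAT-1-8 it was inside the gene. The pooled shares were 66.7% with it and 63.4% without. Within 100 bp of the summit, the consensus was found at 2 of 21 IDR summits at tRNA genes (9.52%), against 6.54% of all IDR summits. AAGGTC, which the consensus can contain, was at 5 of 21 (23.8%), against 13.6%. The windows can overlap tRNA genes that hold it, as those at tRNA:Ile-AAT-1-4, tRNA:Ile-AAT-1-8 and tRNA:Arg-TCT-1-1 do. At the 141 weaker summits the consensus was at 3 (2.13%), against 2.96% of all pooled summits below the threshold, and AAGGTC at 16 (11.3%), against 8.33%.

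Other motifs gave small counts. GGTTCGA, the B box letters of many tRNA genes, was near 5 of 21 IDR summits and 34 of the 141 weaker ones (24.1%), against 1.99% of all IDR summits and 1.64% of all weaker ones, and the 100 bp windows overlap the genes that hold it. Genes with GGTTCGA had a pooled share of 63.4%, against 64.1% without it. TATCGATA, the DREF site, was at 2 of 21, against 3.79%. GGTCACACT, known as motif 1 of fly core promoters, was at 0 of 21, against 3.43%.

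Gene classes were compared by 5′ end and away from coding starts. The pooled shares were 61.9% for 257 tRNA genes (55.8 to 67.6), 37.0% for 27 small nuclear RNA genes (21.5 to 55.8), 25.9% for 239 small nucleolar RNA genes (20.8 to 31.8) and 20.5% for 2427 other non-coding RNA genes (19.0 to 22.2). The tRNA interval lay above those of the small nucleolar and other non-coding genes, and met that of the small nuclear RNA genes at 55.8%. In the IDR list they were 8.95% (6.04 to 13.1), 14.8% (5.92 to 32.5), 5.44% (3.21 to 9.08) and 3.34% (2.69 to 4.13) in that order. There the tRNA interval overlapped those of the small nuclear and small nucleolar RNA genes, and lay above that of the other non-coding genes. The 96 genes of 5S ribosomal RNA, which are also transcribed by polymerase III, had no listed summit. They stand in a tandem array of near-identical repeats.

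**Figure D5:**
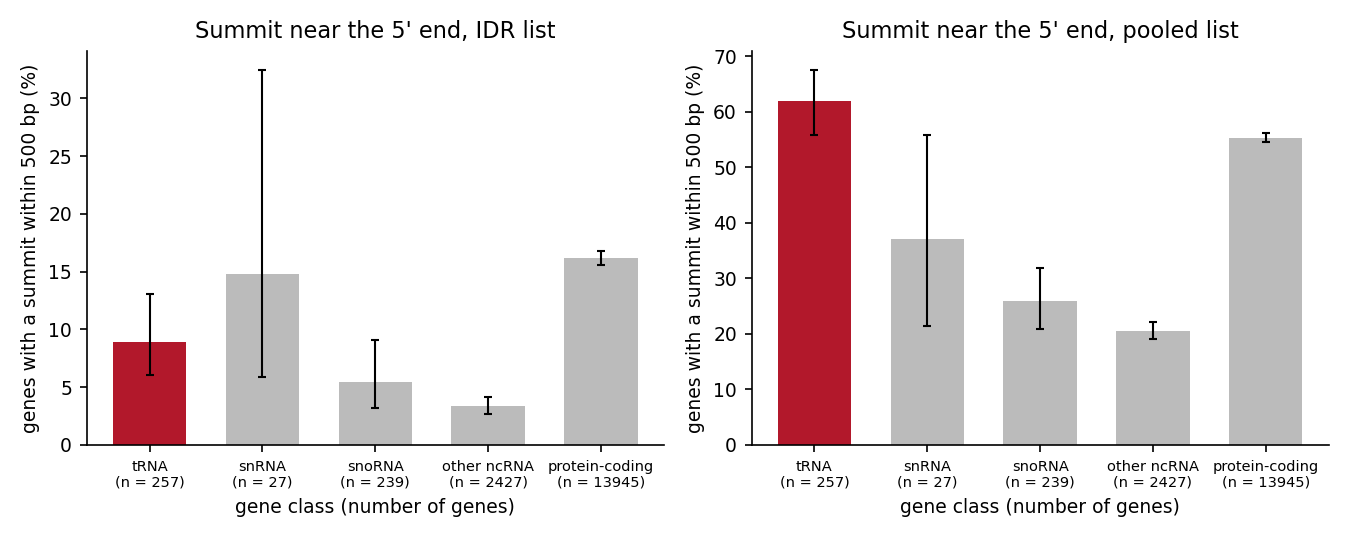
Bars give the percentage of genes with a summit within 500 bp of the 5′ end by gene class (x axis, with the number of genes), for the IDR list (left) and the pooled list (right), with 95% Wilson intervals, where non-coding classes leave out genes with a protein-coding start within 500 bp. In the pooled list tRNA genes are at 61.9%, small nuclear RNA genes at 37.0%, small nucleolar RNA genes at 25.9% and other non-coding RNA genes at 20.5%, while protein-coding genes are at 55.3%.

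Polymerase III also transcribes a few genes from promoters that lie outside the gene. Of 10 genes listed here for that class, 4 had an IDR summit and 5 a pooled one. Which polymerase reads each of them was not checked in these data. Away from coding starts these were 4 of 9 (44.4%, 18.9 to 73.3) and 5 of 9 (55.6%, 26.7 to 81.1), so the IDR interval lay above that of the tRNA genes and the pooled intervals overlapped. The neighbours snRNA:U6:96Ab and snRNA:U6:96Ac, which encode the U6 spliceosomal RNA, shared 1 summit of rank 1575 (1953 in replicate 1, 1578 in replicate 4). The U6 genes are also counted among the small nuclear RNA genes above, so those classes are not separate. The gene of the polymerase II regulator RNA snRNA:7SKa had rank 2192, with 5633 in replicate 1 and 1268 in replicate 4. RNaseMRP:RNA, the RNA of a ribosomal RNA processing enzyme, had rank 2262. RNaseP:RNA, whose enzyme trims tRNA 5′ ends, had rank 15425 and no peak in replicate 1. Its place in this class is uncertain for the fly, and it is counted among the 5 with a pooled summit. No pooled summit was listed at snRNA:7SKb, snRNA:U6:96Aa, snRNA:U6atac or either copy of the signal recognition particle RNA.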

How the data were processed

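Peak lists of both replicates, their pool and the IDR list, deposited by the authors in dm6, were used. The signal per peak is the authors' own value on an unstated scale. A deposited −log10 q-value column was not used because many peaks tie at its highest value. Per the labels' protocols the chromatin was sonicated to a size range of 200 to 800. A control library entered the calls. For the aligner, the caller, the treatment of reads that fit several places and the IDR cutoff: not given in the sources used here. Lists in dm3 were not used here. Summits are 1-based dm6 positions. Genes came from Ensembl release 115 (BDGP6.54) and sequence from the release 6 RefSeq assembly.

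The expected share was the exact share of all placements of each gene on its own arm, outside unknown bases, that met the same rule, so no random draw was made and no p-value is given. A placement routine was tested on simulated data. Loci joined genes with gaps up to 5000 bp. A replicate's rank at a pooled summit is that of its strongest peak overlapping the pooled peak by at least 1 bp. Shares carry Wilson 95% intervals. Named sites were the 15 strongest IDR summits at tRNA genes, the 10 strongest away from coding starts, the 5 largest loci, the 5 strongest weaker summits, and up to 6 genes with an IDR summit per pathway list. Other sites at the list's end were named after their values were seen. Members and lists were chosen with earlier results of these data known. Python 3.11.15, numpy 2.4.6, pandas 2.3.3 and matplotlib 3.10.9 were used. Alternatives covered the distance, the measuring point, peak overlap, the stronger 50% of IDR peaks, the locus gap and each replicate alone.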

Additional observations from a re-analysis of the deposited data

How the results depend on the processing

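The share of tRNA genes with an IDR summit, 11.4%, was 7.93% at 250 bp, 16.9% at 1000 bp and 6.55% with the stronger 50% of IDR peaks, which also gave 5.06% for genes without a coding start and 6.94% of loci. The pooled share, 63.8%, was 52.1% at 250 bp, 74.5% at 1000 bp and 70.3% when any overlap of the peak within the distance counted. The share of tRNA genes with a coding start was 4.14% at 250 bp and 27.6% at 1000 bp. The pooled ratio to placement, 3.39, was 4.57 at 250 bp and 2.66 at 1000 bp. A wider distance reaches more ground by construction. The other 37 of 49 alternatives moved by less than the interval of the reported value. Leaving out a replicate, which meant using the strongest 3960 peaks of the other one, gave IDR-level shares of 11.0 to 13.4%, 9.34 to 12.1% without coding starts, 24.2% in both cases with one, and 12.5 to 13.9% of loci. The pooled share was then 62.8 to 64.1%, and the ratios to placement 3.65 to 4.32 and 3.28 to 3.42. Keeping away the starts of all other genes, an alternative chosen after seeing the data, gave 9.35%. No paired analysis was possible because there is 1 group. Read depth is unknown, so weak and absent binding cannot be told apart.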

Other observations

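Genes that act on tRNAs were counted with the same lists, at any annotated start within 500 bp of a summit. Of 20 aminoacyl-tRNA synthetase genes, which charge tRNAs with their amino acids, 6 had an IDR summit (30.0%) and 19 a pooled one (95%), beside 18.4% and 57.8% of all 13945 protein-coding genes. IleRS had rank 450 in the pooled list (439 in replicate 1, 572 in replicate 4) and GluProRS rank 787 (606 and 1477). beta-PheRS had rank 1176, SerRS 1341, LysRS 2429 and HisRS 2483. The 1 synthetase gene without a pooled summit, named after its value was seen, was alpha-PheRS, whose protein partners that of beta-PheRS.

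Of 16 symbols listed for RNA polymerase III and its factors, 15 were matched, TfIIIA was not, and Sbf is not known as such a factor. Of the 15, 3 had an IDR summit (20.0%) and 12 a pooled one (80.0%), beside 18.4% and 57.8% of all protein-coding genes, so the IDR share was near the background. Sbf, which is counted in the 15, had a pooled summit only. The TFIIIB subunit genes Brf (rank 1110, with 1110 in replicate 1 and 1398 in replicate 4) and Bdp1 (1926, with 1375 and 2335) were among the 3, with La (3021), whose protein binds the 3′ ends of new polymerase III transcripts. Trf had a pooled summit only (rank 12474), and none of the listed Polr3 genes had an IDR summit within 500 bp of a start. At Polr3E, also named after its value was seen, the pooled summit ranked 14727. Its peak nevertheless overlapped strong replicate peaks, of rank 873 in replicate 1 and 810 in replicate 4. Polr3C, Polr3K and Maf1, named after their values were seen, had no pooled summit. These lists were chosen with earlier results of these data known and carry no test.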
